A study of Mus musculus with 16 samples.

Results

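The liver takes apart most dietary amino acids and turns their nitrogen into urea. The data below cover 42 mouse genes of the urea cycle and of the catabolism of glutamate, glutamine, proline, methionine, tyrosine, tryptophan, histidine, serine, glycine, glyoxylate, lysine and the branched-chain amino acids. They were picked by name, as the rows of 42 listed symbols that both deposited count tables hold, out of 24421 rows per table. The list was drawn up with earlier results of these data known. Messenger RNA of whole liver was sequenced in 16 libraries, in 4 groups of 4. DKO livers were homozygous for floxed ARID1A (ARID1A f/f) and for floxed ARID1B (ARID1B f/f) and carried Alb-Cre (Alb-Cre+), and their controls had both pairs of floxed alleles and no Cre (Alb-Cre-). BKO livers were ARID1B f/f with Alb-Cre+, and their controls were ARID1B f/f with Alb-Cre-. A BAF chromatin remodelling complex holds either ARID1A or ARID1B as a subunit. Alb-Cre is driven by the albumin promoter, which is active in hepatocytes and in the fetal progenitors they share with bile duct cells, so the other cells of the liver keep their alleles. Cre was present in every knockout and in no control, and no group lacked ARID1A alone. The labels give no age, and each library goes by its tag, DKO-7068 or F1 for example.

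Amino acid breakdown starts with the loss of the amino group, most often by a transaminase that passes it to glutamate. Ammonia set free from glutamate or glutamine enters the urea cycle in the mitochondria of hepatocytes, which runs through carbamoyl phosphate, citrulline, argininosuccinate and arginine. The carbon skeletons follow separate routes, most of which are far more active in hepatocytes than elsewhere. In the liver lobule the urea cycle is stronger near the portal vein, and glutamine synthesis is confined to hepatocytes around the central vein.

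Total counts were 8699417 to 11031443 in the 8 libraries of DKO livers and their controls, and 21151726 to 40551934 in the 8 libraries of the BKO comparison. Levels are in CPM, counts divided by library size after TMM scaling, fold changes are on the log2 scale over the controls of the same experiment, and a gene was called at an adjusted p under 0.05 (edgeR quasi-likelihood test, Benjamini-Hochberg over all genes tested). The targeted gene Arid1b had 55.4, 61.4, 78.0 and 45.4 CPM in DKO livers, against 80.7, 82.0, 97.1 and 97.3 CPM in DKO controls, and 41.7, 46.8, 40.1 and 48.4 CPM in BKO livers, against 85.5, 86.4, 85.5 and 81.9 CPM in BKO controls. It was lower in both knockouts (log2 fold change -0.57, SE 0.16, adjusted p = 0.0167 in DKO; log2 fold change -0.94, SE 0.09, adjusted p = 0.00154 in BKO). Arid1a was not called in DKO livers (log2 fold change -0.20, SE 0.10, adjusted p = 0.149), and the sources used here do not say whether the counted exons include the floxed part. The livers are hepatocyte rich in all 4 groups, with Alb, which encodes serum albumin, at 3.76 to 6.38% of all counts in DKO livers, against 8.62 to 9.94% in DKO controls. In BKO livers the share of Alb was 6.77 to 9.30%, against 7.29 to 8.23% in BKO controls.

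Of the 41 members that could be tested in DKO livers, 19 fell, 1 rose and 21 were not called. That is 48.8% of the members called, where 35.8% of all 12848 tested genes were called (19.2% higher and 16.6% lower). The members' median log2 fold change was -0.56, against 0.02 over all tested genes. Since the list was drawn up with earlier results known, these values describe it and do not test it. All 4 DKO libraries lay below all 4 controls for 20 members and above them for 1, where 16.9% of all genes lay below and 18.5% above. The falls ran from 0.52 for Fah to 3.02 for Prodh on the log2 scale, and 9 of the 19 were of more than 1 log2 unit. With total counts in place of TMM the same 19 fell and 5 members rose, while the median of all genes moved to 0.20 and the calls over all genes turned from 2467 higher and 2137 lower to 3266 higher and 1269 lower. Alb had a log2 fold change of -0.91 (adjusted p = 0.00738), and 11 of the 19 members that fell had a lower value than that. The tags of the DKO experiment fall into 3 ranges that each hold DKO livers and controls, and the labels do not say what a range shares. With the tag range as a covariate the 20 calls were kept and 9 more members were called, Cps1, Amdhd1, Gldc, Sardh, Kynu and Ivd lower and Gpt, Cth and Aass higher, while 40.7% of all genes were called (21.6% higher and 19.1% lower). For each of these 9 the DKO livers lay on the same side of their controls in all 3 ranges. The fit with the tag range picked these 9 and favours such agreement, so it is no separate support. All but 1 of the ranges hold a single DKO liver and a single control, where no overlap is possible, so this shows direction only. Nags and Uroc1, which were not called in this fit, also kept to one side in all 3 ranges. No share over all genes is given for this pattern. In whole liver, fewer cells of a type and less RNA per cell cannot be told apart.

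None of the 42 members was called in BKO livers by edgeR, where 0.583% of 14061 tested genes were called (0.185% higher and 0.398% lower). The median log2 fold change of the members was -0.03, against 5.14e-05 over all genes, and 4 of the 42 members had an unadjusted p under 0.05 (Cth, Amdhd1, Etnppl and Bckdhb), where 11.6% of all tested genes did. The DESeq2 Wald test called Etnppl and Bckdhb lower. Only Bckdhb had all 4 BKO libraries on one side of all 4 controls, below them, where 3.36% of all genes lay below and 3.64% above. The standard errors of the BKO fold changes ran from 0.09 to 0.36. The change in DKO livers minus the change in BKO livers was called for 18 of 42 members, 17 of them lower and 1 higher, where 22.5% of 14050 genes were called (11.5% lower and 11.0% higher). Its median was -0.52 for the members and -0.01 for all genes. Those 18 are 18 of the 20 genes called in DKO livers, and the other two, Agxt2 and Etnppl, had a difference of -0.35 (adjusted p = 0.196) and -0.51 (adjusted p = 0.286).

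**Figure D1:**
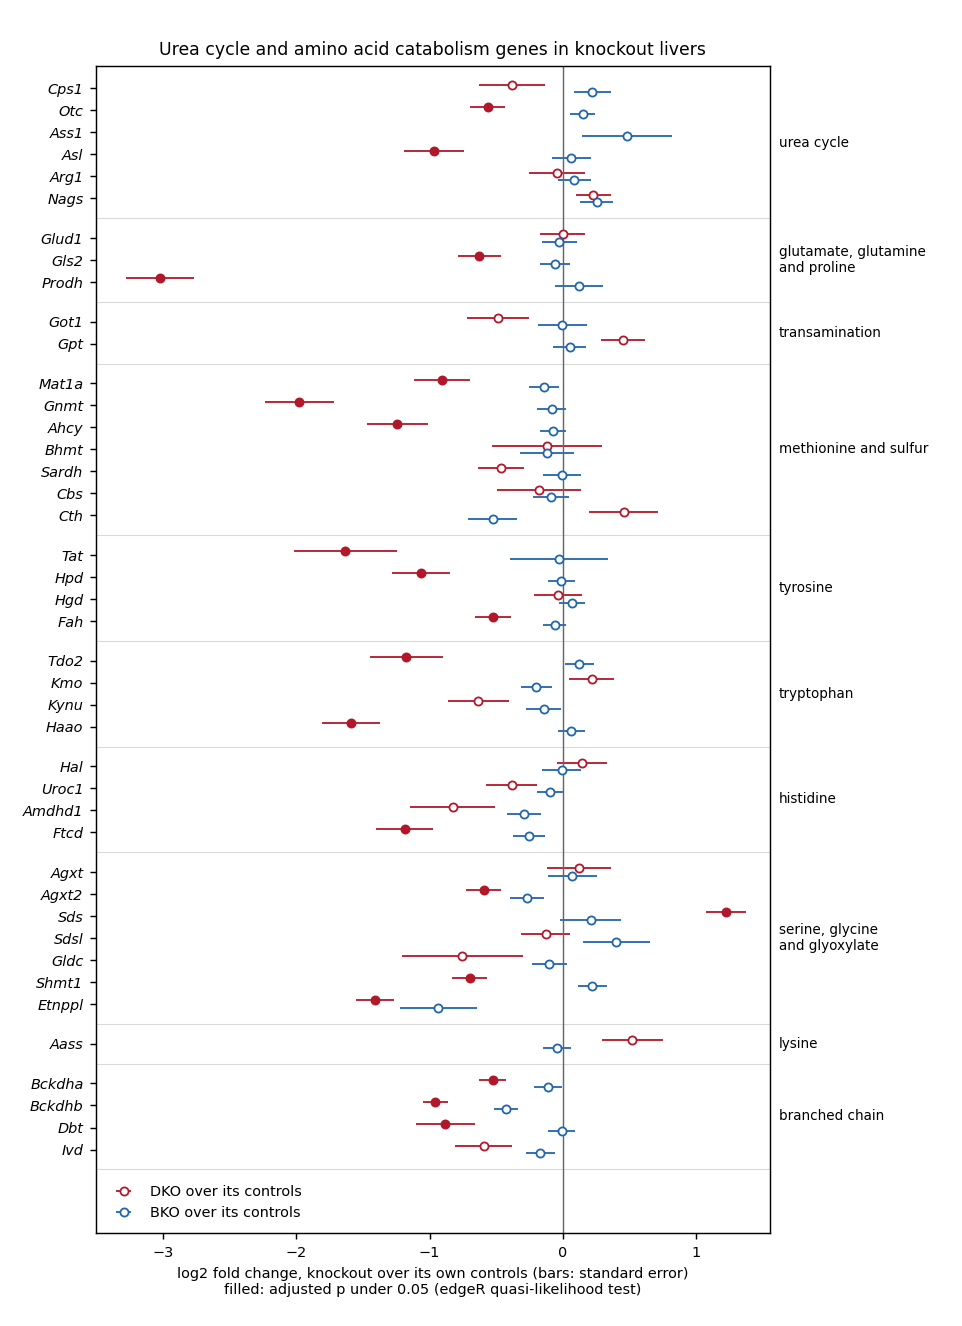
Log2 fold change of each of the 42 members in DKO livers (red) and BKO livers (blue), each over its own Cre-negative controls, with standard errors, grouped by pathway. Filled points have an adjusted p under 0.05: 20 red points are filled, 19 of them left of zero, and no blue point is; Ass1 has no red point because its counts were too low to test.

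The promoters of the members are shown for 4 genes that fell in DKO livers, since 19 members moved the same way there. RefSeq start sites on GRCm38.p6 gave windows of 300 bases, from 250 before to 50 after a start, for 31 of the 42 members, with 34 windows in all. Cps1, Asl, Arg1, Gls2, Gpt, Mat1a, Cth, Kynu, Sds, Sdsl and Dbt had none. Prodh and Gnmt had the lowest fold changes of all members, and Ftcd and Tdo2 are members with a motif match. Capitals mark an HNF4A-type motif (TGNACTTTG) or the letters TATAAA of a TATA box, wherever they stand in the window, searched on both strands.
Prodh, chr16:18089141-18089440, minus strand: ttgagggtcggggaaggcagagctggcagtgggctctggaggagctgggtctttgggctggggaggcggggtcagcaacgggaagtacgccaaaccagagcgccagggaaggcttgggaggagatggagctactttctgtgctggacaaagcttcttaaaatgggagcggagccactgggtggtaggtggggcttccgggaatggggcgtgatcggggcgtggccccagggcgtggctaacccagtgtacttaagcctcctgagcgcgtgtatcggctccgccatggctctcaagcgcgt
Gnmt, chr17:46729116-46729415, minus strand: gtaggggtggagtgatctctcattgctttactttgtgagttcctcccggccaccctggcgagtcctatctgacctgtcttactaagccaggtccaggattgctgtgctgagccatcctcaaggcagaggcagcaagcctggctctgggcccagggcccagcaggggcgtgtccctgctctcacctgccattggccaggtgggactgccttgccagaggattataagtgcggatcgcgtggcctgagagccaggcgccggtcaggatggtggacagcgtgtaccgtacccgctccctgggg
Ftcd, chr10:76575398-76575697, plus strand: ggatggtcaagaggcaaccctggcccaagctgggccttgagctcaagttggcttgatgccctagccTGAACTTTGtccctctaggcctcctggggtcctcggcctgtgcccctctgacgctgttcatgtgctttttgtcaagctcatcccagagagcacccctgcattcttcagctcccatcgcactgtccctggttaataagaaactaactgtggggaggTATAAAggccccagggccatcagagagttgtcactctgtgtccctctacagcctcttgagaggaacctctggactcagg
Tdo2, chr3:81975679-81975978, minus strand: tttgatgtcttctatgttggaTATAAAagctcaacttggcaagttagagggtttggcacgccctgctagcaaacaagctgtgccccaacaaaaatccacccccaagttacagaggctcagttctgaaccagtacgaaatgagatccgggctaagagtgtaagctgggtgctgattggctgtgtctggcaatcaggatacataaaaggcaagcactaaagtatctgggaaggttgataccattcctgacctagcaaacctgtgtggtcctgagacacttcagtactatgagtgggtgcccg
The window of Ftcd held 1 HNF4A-type match and 1 TATAAA match, the latter from base 222. That of Tdo2 held 1 TATAAA match from base 22, far before the start site. Those of Prodh and Gnmt held none of the motifs named here. The HNF4A-type motif stood in 3 of the members' 34 windows (8.82%), and in 1.41% of all 32851 windows. These 3 windows belong to only 2 of the 31 genes, Ftcd and Agxt2. The letters TATAAA stood in 17.65% of the members' windows and 13.62% of all windows, and a C/EBP-type motif (TTGCNNAA) in 11.76% and 10.8%. No member's window held the cAMP response element (TGACGTCA) or an HNF1-type motif (GTTAATNAT), which stood in 1.79% and 0.8% of all windows. These are letter matches, and they do not show binding.

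In the urea cycle, Otc and Asl fell in DKO livers, 3 of the 5 tested genes were not called, and no gene was called in BKO livers. The 40.0% called in DKO livers is near the 35.8% of all tested genes. Cps1, the mitochondrial carbamoyl phosphate synthetase that takes in ammonia, had 5721, 5519, 4118 and 8265 CPM in DKO livers, against 8265, 6769, 5876 and 9879 CPM in DKO controls. The groups overlapped and Cps1 was not called (log2 fold change -0.38, SE 0.25, adjusted p = 0.256). With the tag range as a covariate it was called, with a log2 fold change of -0.40 ± 0.14 (SE; adjusted p = 0.049). Otc, which joins carbamoyl phosphate to ornithine to make citrulline, had 189, 190.3, 176 and 246 CPM in DKO livers, against 299, 276, 301 and 308 CPM in DKO controls. Every DKO library lay below every control, and Otc fell by 0.56 ± 0.13 on the log2 scale (SE; adjusted p = 0.00752). Asl, which splits argininosuccinate into arginine and fumarate, had 322, 370.5, 286 and 539 CPM in DKO livers, against 763, 673, 587 and 942 CPM in DKO controls. It fell by 0.97 ± 0.22 on the log2 scale (SE; adjusted p = 0.00668), with no overlap between the groups. Arg1, the arginase that releases urea, had 1071, 926, 1019 and 1697 CPM in DKO livers, against 1286, 1119, 1050.1 and 1407 CPM in DKO controls, and the groups were mixed through each other (log2 fold change -0.04, SE 0.21, adjusted p = 0.89). Nags, which makes the N-acetylglutamate that Cps1 needs as activator and has 15.6% of its exon bases opposite Gm11586, had 87.2, 85.7, 76.2 and 94.9 CPM in DKO livers, against 82.2, 57.4, 70.6 and 83.8 CPM in DKO controls (log2 fold change 0.23, SE 0.13, adjusted p = 0.213).

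Ass1, the argininosuccinate synthase, cannot be read from these tables. It held 5 to 9 counts per library in DKO livers, against 8 to 11 in DKO controls, and 29 to 65 in BKO livers, against 20 to 46 in BKO controls. That is 0.543 to 0.81 CPM in DKO livers and 0.764 to 1.23 CPM in DKO controls. Of the 50-base stretches of its transcript, 38.6% also occur in the pseudogene Gm5424, which held 0 counts in all 16 libraries, and the sources used here do not say how the counting treated reads that match both.

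None of the 6 urea cycle genes was called in BKO livers. Their log2 fold changes were all above 0, with a median of 0.18, against 5.14e-05 over all tested genes. The highest, 0.48, was that of Ass1, which cannot be read here. No direction is read from these uncalled values. Cps1 had 9125, 7529.9, 7039 and 7456 CPM in BKO livers, against 7231, 7863, 5258 and 6387 CPM in BKO controls (log2 fold change 0.22, SE 0.14, adjusted p = 0.597). Otc had 294, 276, 249.5 and 249 CPM in BKO livers, against 261, 234, 252 and 219 CPM in BKO controls. Both genes overlapped between the groups. Asl averaged 609.6 ± 49.8 CPM in BKO livers and 584 ± 128 CPM in BKO controls (SD, n = 4 each), and Arg1 averaged 927 ± 137 CPM in BKO livers and 873 ± 112 CPM in BKO controls. Nags averaged 79.2 ± 14.9 CPM in BKO livers and 66.4 ± 3.52 CPM in BKO controls (log2 fold change 0.25, SE 0.12, adjusted p = 0.47). The DKO change minus the BKO change was -0.74 ± 0.16 (SE; adjusted p = 0.00253) for Otc and -1.06 ± 0.28 (SE; adjusted p = 0.0115) for Asl. For Cps1 it was -0.63 ± 0.29 (SE; adjusted p = 0.134), which was not called.

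**Figure D2:**
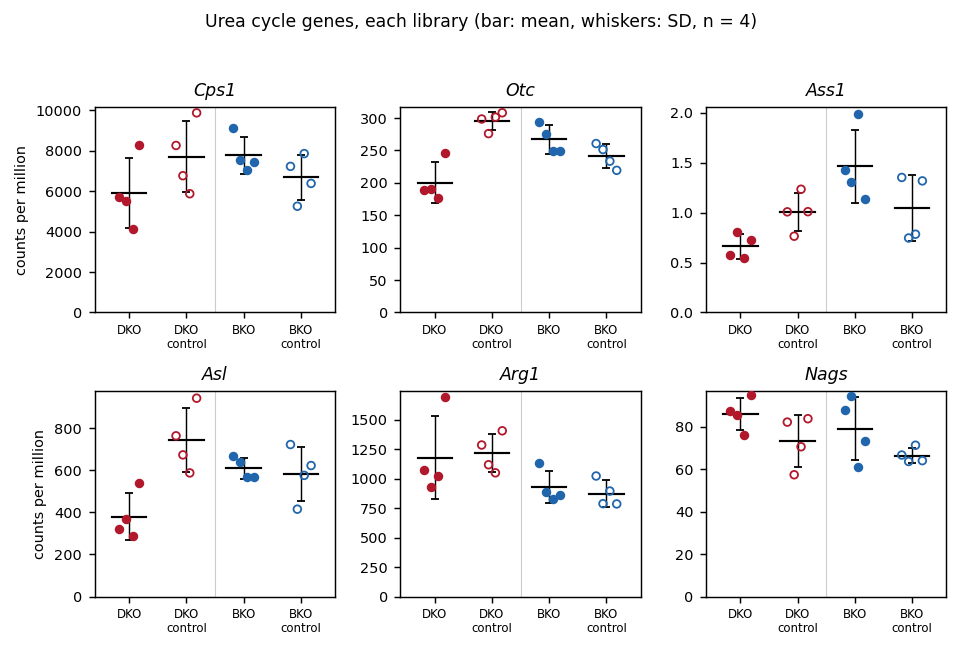
CPM of the 6 urea cycle genes in each library of DKO, DKO control, BKO and BKO control livers; filled points are knockouts, open points controls, bars means and whiskers SD over 4 libraries. For Otc and Asl the DKO points lie below all DKO control points, Cps1, Arg1 and Nags overlap, and Ass1 stays below 2 CPM in every library.

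Of 7 other genes listed with the urea cycle, 2 of the 5 tested in DKO livers fell and none rose. Beside this count and those of the later lists stands the share over all tested genes in DKO livers, 16.6% lower and 19.2% higher. Oat, which converts ornithine to glutamate semialdehyde, averaged 71.5 ± 21.5 CPM in DKO livers and 353 ± 128 CPM in DKO controls, and it fell by 2.31 ± 0.29 on the log2 scale (SE; adjusted p = 3.15e-04). Car5a, the mitochondrial carbonic anhydrase that supplies bicarbonate, averaged 12.2 ± 3.67 CPM in DKO livers and 45.9 ± 13.8 CPM in DKO controls, and it fell by 1.91 ± 0.27 on the log2 scale (SE; adjusted p = 6.27e-04). The ornithine carrier Slc25a15 and the aspartate-glutamate carrier Slc25a13 were not called (log2 fold changes 0.55 and -0.30). In BKO livers the 1 call among all 104 other pathway genes was Odc1, the ornithine decarboxylase that starts polyamine synthesis. It had 104, 121, 114 and 92.5 CPM in BKO livers, against 53.9, 70.4, 42.7 and 69.1 CPM in BKO controls. It rose by 0.87 ± 0.15 on the log2 scale (SE; adjusted p = 0.033), and the call was lost without F1, F2, F3, F4 or F6.

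Prodh, the proline dehydrogenase that opens proline oxidation, showed the lowest fold change of all 42 members. The gene lies at chr16:18060357-18090203, minus strand. It had 22.2, 22.9, 43.1 and 31.6 CPM in DKO livers, against 271, 181, 208 and 309.5 CPM in DKO controls. Every DKO library lay far below every control, and Prodh fell by 3.02 ± 0.26 on the log2 scale (SE; adjusted p = 3.19e-05), which is 8.10-fold as a ratio of means. In BKO livers it had 298, 282, 217 and 155 CPM, against 196, 249, 207 and 225 CPM in BKO controls, with the groups mixed (log2 fold change 0.12, SE 0.18, adjusted p = 0.865). The DKO change minus the BKO change was -3.17 ± 0.33 (SE; adjusted p = 1.18e-05).

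Gls2, the liver glutaminase that frees ammonia from glutamine, had 181, 224, 249.5 and 263 CPM in DKO livers, against 399, 277, 373 and 371 CPM in DKO controls. The groups did not overlap, and Gls2 fell by 0.63 ± 0.16 on the log2 scale (SE; adjusted p = 0.0119). The difference from BKO livers, -0.60 ± 0.20 (SE; adjusted p = 0.0385), was called, but not in 14 of 25 alternatives. Glud1, the glutamate dehydrogenase, averaged 1330.4 ± 213 CPM in DKO livers and 1332 ± 169.9 CPM in DKO controls, and was not called (log2 fold change -0.00, SE 0.17, adjusted p = 0.995). Of the 9 tested genes listed with this group, 4 rose and 4 fell in DKO livers. Glul, the glutamine synthetase of pericentral hepatocytes, had 189, 231, 257 and 139.7 CPM in DKO livers, against 880.1, 1017, 877 and 919 CPM in DKO controls. It fell by 2.18 ± 0.19 on the log2 scale (SE; adjusted p = 2.87e-05), and averaged 702 ± 64.5 CPM in BKO livers and 825 ± 79.5 CPM in BKO controls (log2 fold change -0.23, SE 0.11, adjusted p = 0.424). The omega-amidase Nit2, the asparaginase Aspg and Aldh4a1, the next enzyme of proline oxidation after Prodh, fell as well (log2 fold changes -1.21, -1.89 and -0.58). Those that rose include Aldh18a1, which acts in proline synthesis from glutamate, and the asparagine synthetase Asns, with log2 fold changes of 2.43 and 3.03. Aldh18a1 had 13.1, 10.6, 10.5 and 13.6 CPM in DKO livers, against 3.13, 2.67, 1.46 and 1.51 CPM in DKO controls, with no overlap.

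The transaminases Got1 and Gpt were not called in either knockout. Gpt, the cytosolic alanine aminotransferase, had 305, 277, 236 and 373 CPM in DKO livers, against 223, 181, 208 and 259 CPM in DKO controls. Only 1 DKO library lay within the control range, and the test stayed above the threshold (log2 fold change 0.45, SE 0.17, adjusted p = 0.0571), but not with the tag range as a covariate (adjusted p = 0.0174). Got1, the cytosolic aspartate aminotransferase, had 122 to 251 CPM in DKO livers, against 219 to 339 CPM in DKO controls (log2 fold change -0.49, SE 0.23, adjusted p = 0.127). Of 5 other transaminases, Gpt2, the mitochondrial alanine aminotransferase, was the 1 called in DKO livers. It averaged 172 ± 67.7 CPM in DKO livers and 579 ± 12.7 CPM in DKO controls, and it fell by 1.75 ± 0.24 on the log2 scale (SE; adjusted p = 3.18e-04).

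In methionine metabolism Mat1a, Gnmt and Ahcy fell in DKO livers, and 4 of 7 members were not called. The share called was 42.9%, near the 35.8% of all tested genes. Mat1a, the liver enzyme that makes S-adenosylmethionine, had 1614, 1720.4, 2329 and 3033 CPM in DKO livers, against 4237, 3769, 4077 and 4219 CPM in DKO controls. It fell by 0.91 ± 0.21 on the log2 scale (SE; adjusted p = 0.00758), and DKO-7068 and DKO-7070 were the lowest libraries. Gnmt, the glycine N-methyltransferase that spends surplus S-adenosylmethionine, had 189, 222, 316 and 341 CPM in DKO livers, against 1266, 707, 885 and 1345 CPM in DKO controls. Its groups were far apart, and it fell by 1.98 ± 0.26 on the log2 scale (SE; adjusted p = 2.83e-04). Ahcy, which clears the S-adenosylhomocysteine that methyl transfer leaves, had 317, 372, 285 and 541 CPM in DKO livers, against 789.6, 858, 758 and 1179 CPM in DKO controls. It fell by 1.24 ± 0.23 on the log2 scale (SE; adjusted p = 0.0019) without overlap. Ahcy shares 66.0% of its transcript's 50-base stretches with Gm4737, which had a log2 fold change of -1.12 in DKO livers (adjusted p = 0.00182), so its level is uncertain.

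The 3 genes were not called in BKO livers. Gnmt averaged 979.6 ± 127 CPM in BKO livers and 1039 ± 11.3 CPM in BKO controls, and Ahcy averaged 927 ± 41.7 CPM in BKO livers and 977 ± 87.8 CPM in BKO controls. Mat1a averaged 3619 ± 295 CPM in BKO livers and 3992 ± 401 CPM in BKO controls. The DKO change minus the BKO change was -1.92 ± 0.29 (SE; adjusted p = 1.77e-04) for Gnmt, -1.20 ± 0.25 (SE; adjusted p = 0.00264) for Ahcy and -0.80 ± 0.24 (SE; adjusted p = 0.0251) for Mat1a. Sardh, the sarcosine dehydrogenase, had all DKO libraries below all controls, at 433 to 678 CPM in DKO livers, against 709 to 924 CPM in DKO controls, and missed the threshold (log2 fold change -0.46, SE 0.17, adjusted p = 0.0593), but not with the tag range (adjusted p = 0.0387). Bhmt, which remethylates homocysteine with betaine, had 475 to 862 CPM in DKO livers and 317 to 1475 CPM in DKO controls. Its transcript shares 24.1% of its 50-base stretches with Gm5096 and 13.5% with Bhmt-ps1, neither of which was counted here, so its level is uncertain too. Cbs and Cth, the pair of transsulfuration enzymes that lead to cysteine, had log2 fold changes of -0.18 and 0.46 in DKO livers and of -0.09 and -0.53 in BKO livers. Cth had an adjusted p of 0.295 in BKO livers, and its difference between the knockouts was 0.95 ± 0.34 (SE; adjusted p = 0.0573). In DKO livers its adjusted p was 0.197, and 0.0093 with the tag range. Of 15 other genes listed here, 6 fell and none rose in DKO livers. Gamt, which makes creatine, Pemt, which methylates phosphatidylethanolamine, and Cdo1, the cysteine dioxygenase, had log2 fold changes of -1.28, -1.43 and -0.92, with adjusted p-values of 6.42e-05, 4.60e-04 and 0.0024. Chdh, Mtr and Csad were the other 3.

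In tyrosine breakdown 3 of 4 members fell in DKO livers (75.0% called, where 35.8% of all tested genes were). Tat, the tyrosine aminotransferase, had 738, 683, 1364 and 1705 CPM in DKO livers, against 3538, 3361, 1786 and 5239 CPM in DKO controls. It fell by 1.63 ± 0.39 on the log2 scale (SE; adjusted p = 0.00899), although the highest DKO library came close to the lowest control. Hpd, the next enzyme of the route, had 683, 696, 574 and 950.0 CPM in DKO livers, against 1421, 1166, 1424 and 2074 CPM in DKO controls. It fell by 1.07 ± 0.22 on the log2 scale (SE; adjusted p = 0.00351) with no overlap. Fah, which closes the route, had 328, 323, 329 and 426 CPM in DKO livers, against 499, 469.8, 532 and 517 CPM in DKO controls. It fell by 0.52 ± 0.13 on the log2 scale (SE; adjusted p = 0.0123), and was not called against a minimum change of 1.2-fold. Hgd, which stands between Hpd and Fah, averaged 471 ± 77.4 CPM in DKO livers and 483 ± 96.0 CPM in DKO controls and was not called (log2 fold change -0.04, SE 0.18, adjusted p = 0.899).

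Against BKO livers, the change of Hpd differed by -1.09 ± 0.25 (SE; adjusted p = 0.00415), that of Tat by -1.63 ± 0.55 (SE; adjusted p = 0.0454) and that of Fah by -0.49 ± 0.15 (SE; adjusted p = 0.0264). The call for Tat was lost in 18 of 25 alternatives and that for Fah in 8, and the level of Tat varied widely in BKO livers too, at 3011, 1534, 4393 and 2783 CPM in BKO livers, against 3059.7, 2857, 1713 and 4328 CPM in BKO controls. Hpd averaged 1436 ± 88.4 CPM in BKO livers and 1448 ± 143 CPM in BKO controls. Of 4 other genes listed here, 3 fell in DKO livers and none rose. Gstz1, which acts between Hgd and Fah, averaged 227 ± 11.9 CPM in DKO livers and 367 ± 36.7 CPM in DKO controls (log2 fold change -0.69, SE 0.12, adjusted p = 0.00145). Qdpr and Pcbd1, which restore the cofactor tetrahydrobiopterin, had log2 fold changes of -1.33 and -0.50.

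In tryptophan breakdown Tdo2 and Haao fell in DKO livers, while Kmo and Kynu, which act between them, were not called. Tdo2, the dioxygenase that opens the tryptophan ring, had 274, 282, 667 and 470.2 CPM in DKO livers, against 894, 1038, 843 and 1047 CPM in DKO controls. It fell by 1.17 ± 0.27 on the log2 scale (SE; adjusted p = 0.00756), and DKO-7068 and DKO-7070 were lower than DKO-7112 and DKO-7137. Haao, which makes the precursor of quinolinate, had 72.8, 79.6, 125 and 112 CPM in DKO livers, against 365, 209, 287 and 309 CPM in DKO controls. Its groups did not overlap, and it fell by 1.59 ± 0.22 on the log2 scale (SE; adjusted p = 3.45e-04). Kynu, the kynureninase, had 88.1 to 147 CPM in DKO livers and 127 to 251 CPM in DKO controls (log2 fold change -0.64, SE 0.23, adjusted p = 0.0541), and was called with the tag range as a covariate (adjusted p = 0.00226). Kmo, which hydroxylates kynurenine, had 169 to 257 CPM in DKO livers and 143 to 199 CPM in DKO controls (log2 fold change 0.21, SE 0.17, adjusted p = 0.349).

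In BKO livers Tdo2 averaged 782 ± 38.2 CPM, against 718 ± 98.7 CPM in BKO controls, and Haao averaged 258 ± 24.4 CPM, against 247 ± 23.8 CPM in BKO controls. Neither was called there. The DKO change minus the BKO change was -1.33 ± 0.31 (SE; adjusted p = 0.0049) for Tdo2 and -1.68 ± 0.25 (SE; adjusted p = 1.45e-04) for Haao. Of 4 other genes listed here, Ido2, a second tryptophan dioxygenase, was the 1 called in DKO livers. It had 5.09, 5.85, 21.6 and 20.7 CPM in DKO livers, against 140.4, 90.1, 133 and 192 CPM in DKO controls, and it fell by 3.40 ± 0.54 on the log2 scale (SE; adjusted p = 0.00194).

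Of the 4 histidine enzymes, Ftcd, which hands the last one-carbon unit of the route to folate, was the 1 called in DKO livers. The share called was 25.0%, where 35.8% of all tested genes were called. Ftcd had 92.2, 103, 174 and 106 CPM in DKO livers, against 281, 204, 317 and 279 CPM in DKO controls. All DKO libraries were lower than all controls, and Ftcd fell by 1.19 ± 0.21 on the log2 scale (SE; adjusted p = 0.00177). In BKO livers it had 294, 287, 209 and 232 CPM, against 335, 299.6, 306 and 279 CPM in BKO controls, and was not called (log2 fold change -0.25, SE 0.12, adjusted p = 0.441). The difference was -0.96 ± 0.26 (SE; adjusted p = 0.0122). The first 3 enzymes of the route, in order Hal, Uroc1 and Amdhd1, had log2 fold changes of 0.14, -0.38 and -0.83 in DKO livers, with adjusted p-values of 0.596, 0.149 and 0.0765. Amdhd1 had 38.2 to 102 CPM in DKO livers and 74.7 to 147 CPM in DKO controls, and DKO-7112 gave the overlap. It was called with the tag range as a covariate (adjusted p = 0.00232).

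Sds, the serine dehydratase that turns serine into pyruvate, was the only member that rose in DKO livers. The gene lies at chr5:120476526-120483932, plus strand. It had 593, 447, 593 and 471 CPM in DKO livers, against 250.4, 249, 203 and 198 CPM in DKO controls. Every DKO library was above every control, and Sds rose by 1.22 ± 0.15 on the log2 scale (SE; adjusted p = 2.14e-04). In BKO livers it had 341, 181, 332 and 251 CPM, against 271, 221, 172 and 293 CPM in BKO controls, with the groups mixed (log2 fold change 0.21, SE 0.23, adjusted p = 0.792), and the difference was 0.98 ± 0.27 (SE; adjusted p = 0.0152). Of the exon bases of Sds, 29.6% lie opposite exons of Plbd2 or Gm15690, and the sources used here do not say whether the counting used strand. Plbd2 fell by 0.49 on the log2 scale (adjusted p = 0.00306) in DKO livers, with 671 to 839 counts, against 763 to 1119 in DKO controls, while Sds had 4546 to 7218 counts in DKO livers and 1569 to 2613 in DKO controls. Sdsl, a serine dehydratase-like gene next to it, was low at 6.84 to 7.25 CPM in DKO livers and 6.49 to 10.6 CPM in DKO controls and was not called.

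Etnppl, which breaks down phosphoethanolamine, had 60.6, 67.7, 47.4 and 61.9 CPM in DKO livers, against 170.3, 149, 131 and 181 CPM in DKO controls. The groups were well apart, and it fell by 1.41 ± 0.14 on the log2 scale (SE; adjusted p = 6.60e-05). In BKO livers it had 64.0, 47.4, 35.3 and 49.2 CPM, against 136, 54.3, 83.0 and 101 CPM in BKO controls. The highest BKO library lay within the control range, and edgeR did not call it (log2 fold change -0.94, SE 0.29, adjusted p = 0.268), while DESeq2 gave an adjusted p of 0.0113. Shmt1, the cytosolic serine hydroxymethyltransferase, had 112, 109, 105 and 135 CPM in DKO livers, against 190.3, 151, 198 and 207 CPM in DKO controls. It fell by 0.70 ± 0.13 on the log2 scale (SE; adjusted p = 0.00234), against a BKO log2 fold change of 0.22 (adjusted p = 0.457), a difference of -0.95 ± 0.17 (SE; adjusted p = 7.83e-04). Agxt2, a mitochondrial glyoxylate aminotransferase, had 37.4 to 53.0 CPM in DKO livers and 57.5 to 74.5 CPM in DKO controls and fell by 0.59 ± 0.13 on the log2 scale (SE; adjusted p = 0.00545).

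Agxt, which detoxifies glyoxylate in peroxisomes, and Gldc, of the glycine cleavage system, were not called (log2 fold changes 0.12 and -0.76). Gldc varied widely, with 59.1 to 201 CPM in DKO livers and 114 to 354 CPM in DKO controls, and was called with the tag range as a covariate (adjusted p = 0.0377). Of the 12 tested genes listed with serine and glycine, 1 rose and 1 fell in DKO livers. Psat1, of serine synthesis, had 9.03, 3.51, 5.43 and 23.9 CPM in DKO livers, against 0.672, 1.72, 0.897 and 1.89 CPM in DKO controls, and rose (adjusted p = 0.00877). The mitochondrial Shmt2 averaged 133 ± 14.7 CPM in DKO livers and 196 ± 20.9 CPM in DKO controls, and it fell by 0.56 ± 0.12 on the log2 scale (SE; adjusted p = 0.00565). Glyctk, the glycerate kinase, was called for the difference between the knockouts, -0.55 ± 0.19 (SE; adjusted p = 0.0412), and in neither knockout alone.

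For lysine, Aass, which opens the saccharopine route, had 439.9, 362, 377 and 755 CPM in DKO livers, against 339, 345, 285 and 379 CPM in DKO controls. DKO-7137 stood above the other 3, and Aass was not called (log2 fold change 0.52, SE 0.23, adjusted p = 0.104) except with the tag range (adjusted p = 0.0378), in the joint fit and with total counts. Of 4 other lysine genes, 2 fell in DKO livers. Pipox, the pipecolate and sarcosine oxidase, averaged 58.6 ± 21.9 CPM in DKO livers and 259 ± 16.2 CPM in DKO controls, and it fell by 2.14 ± 0.23 on the log2 scale (SE; adjusted p = 9.26e-05). Gcdh, the glutaryl-CoA dehydrogenase, averaged 172 ± 36.8 CPM in DKO livers and 284 ± 33.4 CPM in DKO controls, and it fell by 0.73 ± 0.16 on the log2 scale (SE; adjusted p = 0.00612).

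For the branched-chain amino acids, 3 of 4 members fell in DKO livers (75.0% called, where 35.8% of all tested genes were). These 3 belong to the branched-chain ketoacid dehydrogenase complex. Bckdhb, the beta subunit of its first component, had 36.3, 35.1, 32.8 and 37.2 CPM in DKO livers, against 70.9, 72.8, 67.5 and 63.1 CPM in DKO controls. Both groups were tight and well apart, and it fell by 0.96 ± 0.09 on the log2 scale (SE; adjusted p = 5.07e-05). Bckdha, the alpha subunit, had 95.8, 98.6, 101 and 97.3 CPM in DKO livers, against 139, 137, 162 and 128 CPM in DKO controls, and fell by 0.53 ± 0.10 on the log2 scale (SE; adjusted p = 0.00268). Of its exon bases, 61.7% lie opposite exons of B3gnt8, which held at most 42 counts per library in DKO livers and 30 in DKO controls, while Bckdha held at least 934 in DKO livers and 1017 in DKO controls. Dbt, the acyltransferase of the complex, had 58.8, 51.4, 33.3 and 71.6 CPM in DKO livers, against 89.9, 94.3, 83.8 and 129 CPM in DKO controls, and fell by 0.88 ± 0.22 on the log2 scale (SE; adjusted p = 0.0122). Ivd, which acts next on the leucine branch, had 56.1 to 119.6 CPM in DKO livers and 112 to 168 CPM in DKO controls and was not called (log2 fold change -0.60, SE 0.21, adjusted p = 0.0525), but was with the tag range (adjusted p = 0.00539).

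In BKO livers Bckdhb had 50.9, 53.3, 47.4 and 47.3 CPM, against 61.9, 68.5, 75.3 and 61.6 CPM in BKO controls. Every BKO library lay below every control, and edgeR did not call it (log2 fold change -0.43, SE 0.09, adjusted p = 0.0698), while DESeq2 did (adjusted p = 0.0075) and so did 1 edgeR fit over all 16 libraries (adjusted p = 0.0396). The DKO change minus the BKO change was -0.56 ± 0.12 (SE; adjusted p = 0.0035) for Bckdhb, -0.90 ± 0.25 (SE; adjusted p = 0.0165) for Dbt and -0.45 ± 0.15 (SE; adjusted p = 0.0351) for Bckdha, the last lost in 14 of 25 alternatives. With total counts in place of TMM none of these 3 differences was called. Bckdha averaged 104 ± 6.10 CPM in BKO livers and 112 ± 16.9 CPM in BKO controls, and Dbt averaged 81.3 ± 9.91 CPM in BKO livers and 81.9 ± 4.91 CPM in BKO controls.

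Further down the branched-chain routes most listed genes fell in DKO livers. Of 16 tested genes listed here, 13 fell and none rose, with a median log2 fold change of -0.61. Over all tested genes 16.6% were called lower and 19.2% higher. Pccb, a propionyl-CoA carboxylase subunit, averaged 65.6 ± 7.57 CPM in DKO livers and 130.5 ± 3.61 CPM in DKO controls and fell by 0.99 ± 0.11 on the log2 scale (SE; adjusted p = 8.79e-05). Acad8, the isobutyryl-CoA dehydrogenase, averaged 21.1 ± 0.559 CPM in DKO livers and 37.4 ± 4.40 CPM in DKO controls and fell by 0.82 ± 0.11 on the log2 scale (SE; adjusted p = 2.83e-04). The methylmalonyl-CoA mutase, under its older symbol Mut, averaged 105 ± 12.3 CPM in DKO livers and 182 ± 15.1 CPM in DKO controls and fell by 0.79 ± 0.12 on the log2 scale (SE; adjusted p = 6.04e-04). Mccc1, Mccc2, Auh, Hibch, Hibadh, Aldh6a1, Pcca, Mcee and Acadsb were among the others that fell. Not called were the aminotransferase Bcat2 and the pair that switch the complex, the kinase Bckdk and the phosphatase Ppm1k.

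**Figure D3:**
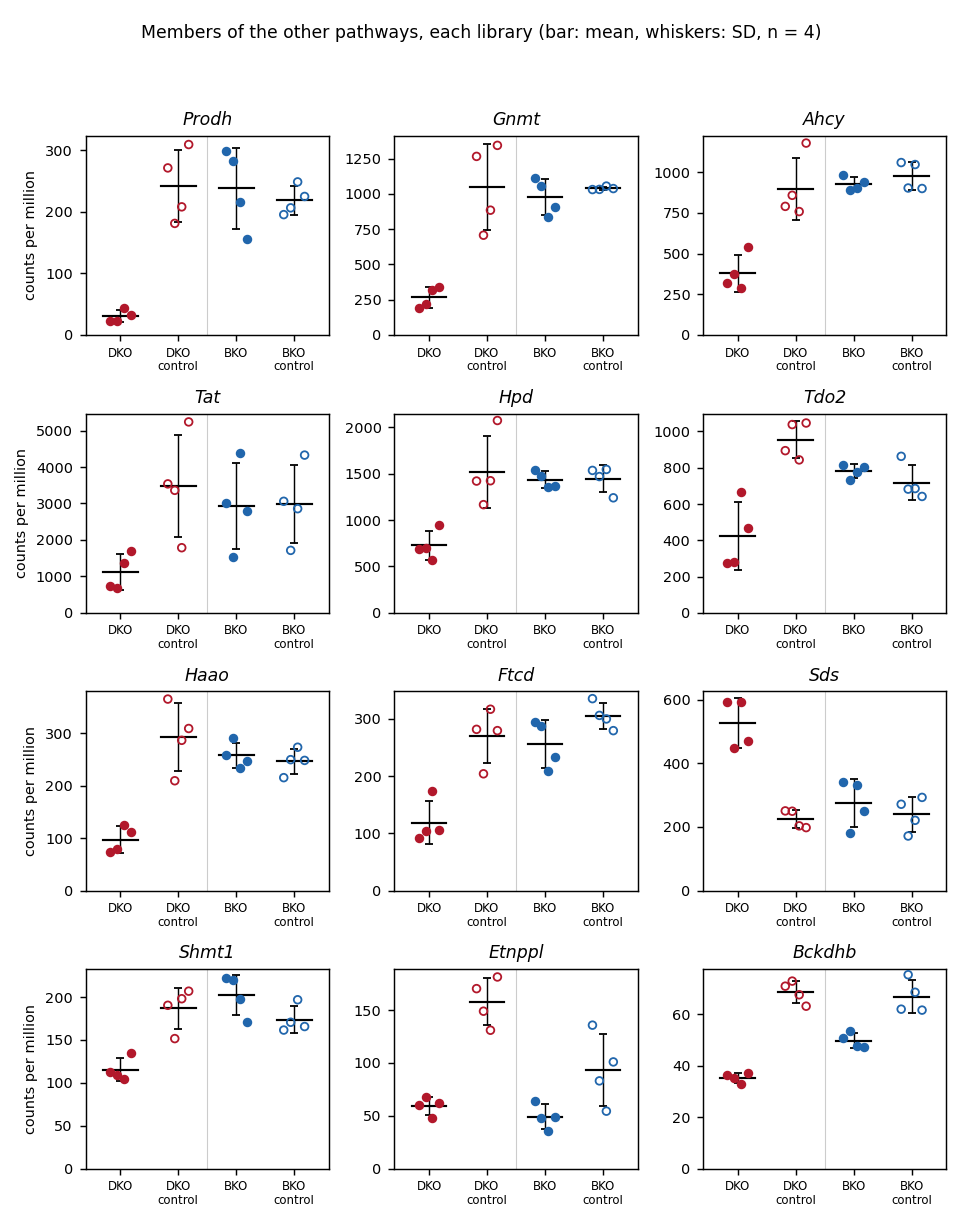
CPM of 12 members in each library of DKO, DKO control, BKO and BKO control livers; filled points are knockouts, open points controls, bars means and whiskers SD over 4 libraries, and each panel has its own axis from zero. In DKO livers 11 of the genes lie below all DKO controls and Sds lies above them, and in BKO livers only Bckdhb is apart from its controls.

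Over all 104 other pathway genes, 43 of the 97 tested in DKO livers fell and 7 rose, with a median log2 fold change of -0.41. That is 51.5% called, where 35.8% of all tested genes were called (16.6% lower and 19.2% higher). In BKO livers 1 of 100 rose and none fell by edgeR, with 13 of 100 at an unadjusted p under 0.05, where 11.6% of all tested genes were, and DESeq2 called 1 lower. The difference between the knockouts was called lower for 32 and higher for 6 of 101, where 11.5% of all genes were lower and 11.0% higher. Among amino acid transporters, 6 of 10 fell and 2 rose in DKO livers. Slc1a2, a glutamate transporter of pericentral hepatocytes, had 1.81, 2.07, 5.97 and 10.8 CPM in DKO livers, against 312, 492, 281 and 323 CPM in DKO controls, and fell by 6.12 ± 0.60 on the log2 scale (SE; adjusted p = 1.63e-04). In BKO livers it averaged 218 ± 16.1 CPM, against 383 ± 92.2 CPM in BKO controls (log2 fold change -0.81, SE 0.16, adjusted p = 0.0523). The neutral amino acid carriers Slc43a1 and Slc1a4 rose, Slc43a1 to 68.0 ± 21.3 CPM in DKO livers, against 12.8 ± 2.87 CPM in DKO controls, and Slc1a4 to 17.6 to 23.9 CPM in DKO livers, against 5.16 to 8.96 CPM in DKO controls. Among 12 regulators, 4 fell in DKO livers and none rose, which is 33.3% called and near the 35.8% of all tested genes. Cebpa, a transcription factor of hepatocytes, averaged 153 ± 60.2 CPM in DKO livers and 360.4 ± 38.8 CPM in DKO controls, and it fell by 1.24 ± 0.26 on the log2 scale (SE; adjusted p = 0.0047). Nr3c1, the glucocorticoid receptor, and Gcgr, the glucagon receptor, fell by less (log2 fold changes -0.47 and -0.48), and Hnf4a was not called (log2 fold change -0.19, SE 0.21, adjusted p = 0.519).

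**Figure D4:**
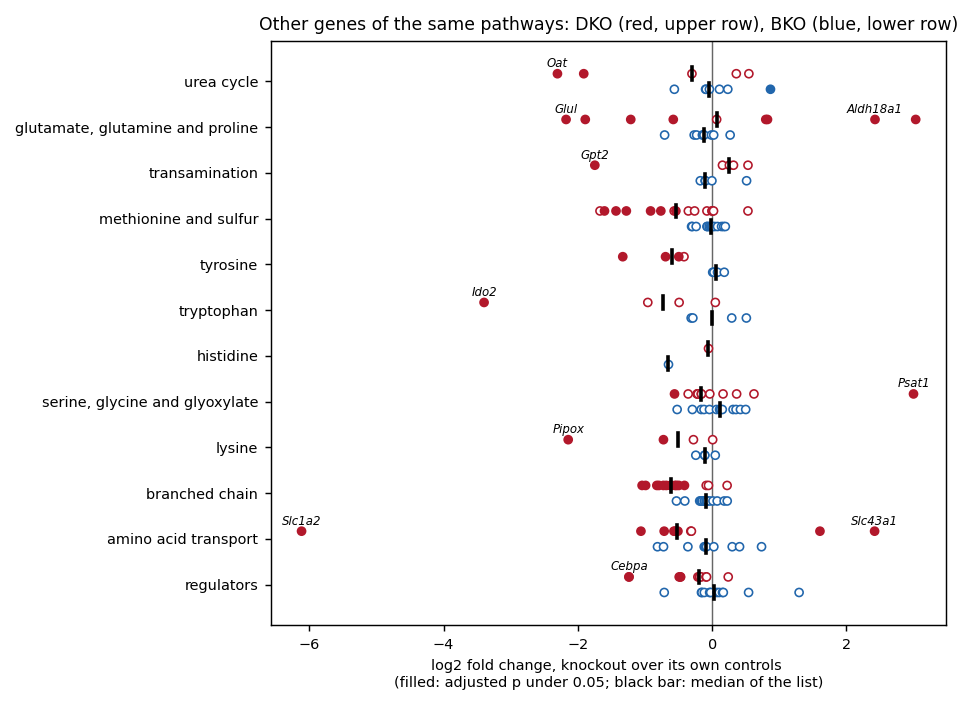
Log2 fold changes of the 104 other pathway genes, one row per list, in DKO livers (red) and BKO livers (blue), each over its own controls; filled points have an adjusted p under 0.05 and black bars are list medians; the filled point of Cebpa covers the open one of Ppargc1a. In DKO livers 43 filled points lie left of zero and 7 right of it, and in BKO livers Odc1 is the 1 filled point.

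Per kilobase of exon, the members spanned a wide range of levels. In DKO controls Tat (1447 ± 587 CPM per kb, SD), Cps1 (1386 ± 316 CPM per kb) and Mat1a (1175 ± 62.5 CPM per kb) were highest, and the 3 did not differ beyond their spread. Gnmt, Hpd and Arg1 followed at 871 ± 253, 715 ± 182 and 546 ± 72.6 CPM per kb, each within the spread of its neighbour. In DKO livers Cps1 led at 1063 ± 311 CPM per kb, followed by Mat1a at 627 ± 188 and Arg1 at 529 ± 158 CPM per kb. Sds moved to rank 7 of 42 in DKO livers, against rank 16 in DKO controls, and Prodh to rank 41, against rank 33. All members together took 1.85 to 2.57% of the counts in DKO livers, against 2.51 to 3.51% in DKO controls. In BKO livers the share was 2.77 to 2.86%, against 2.65 to 3.11% in BKO controls.

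The DKO libraries were not alike among themselves. Of the 19 members that fell, 8 were lowest in DKO-7068, 8 in DKO-7112, 2 in DKO-7070 and 1 in DKO-7137, and 12 were highest in DKO-7137. The libraries DKO-7068 and DKO-7070 were the closest DKO pair, with a dispersion of 0.0145 between them, against 0.0627 to 0.0736 for the other pairs. With both summed into 1 library all 20 DKO calls were kept, and the differences of Gls2, Mat1a, Bckdha, Fah and Tat from BKO livers were lost. Among the DKO controls, 11 of the 19 were lowest in WT-7069 and 11 were highest in WT-7139.

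Some marker lists of other cell types differed in summed level between DKO livers and their controls, and others overlapped. Summed over 8 stellate cell genes, the level was 1745 to 2563 CPM in DKO livers, against 283 to 443 CPM in DKO controls, with 6 of the 8 called higher. Lrat, of retinol storage, went the other way, at 10.1 ± 4.54 CPM in DKO livers and 34.4 ± 8.52 CPM in DKO controls (log2 fold change -1.77, SE 0.34, adjusted p = 0.00383). The 5 proliferation genes, all called higher, summed to 76.5 to 135 CPM in DKO livers, against 14.3 to 18.1 CPM in DKO controls. The 7 cholangiocyte genes summed to 82.5 to 862 CPM in DKO livers, against 36.0 to 57.5 CPM in DKO controls, but 3 of the 7 could be tested and 1, Spp1, was called. The 8 macrophage genes summed to 448 to 506 CPM in DKO livers, against 272 to 461 CPM in DKO controls, with 5 called higher and none lower. The 6 endothelial genes summed to 319 to 351 CPM in DKO livers and 323 to 404 CPM in DKO controls, with 1 called higher and 1 lower. The 10 hepatocyte genes summed to 104276 to 124634 CPM in DKO livers, against 144664 to 170273 CPM in DKO controls, with 3 of them called lower, 1 called higher and a median log2 fold change of -0.13. Alb is 1 of the 10 and weighs heavily in this sum. The sum averaged 111210 CPM in DKO livers and 155777 CPM in DKO controls, and Alb alone 53336 and 100122 CPM. By these means Alb alone fell by no less than the whole sum. Of the 8 pericentral hepatocyte genes, 6 fell in DKO livers, among them Glul, Oat and Slc1a2, and 2 were not called. Log2 fold changes in this list ran from -6.12 to -0.04. The 8 genes summed to 831 to 1127 CPM in DKO livers, against 5936 to 8366 CPM in DKO controls. The 6 periportal genes, among them Alb, summed to 41928 to 69412 CPM in DKO livers, against 95896 to 114315 CPM in DKO controls, with 2 called lower and 1 higher. Alb makes up most of this sum, which averaged 56430 CPM in DKO livers and 105363 CPM in DKO controls. Only 1 of the 6 genes had all 4 DKO libraries below all 4 controls. In BKO livers each of these sums overlapped its controls except that of the proliferation genes, at 15.4 to 18.5 CPM in BKO livers, against 8.58 to 15.0 CPM in BKO controls, where no gene was called. In BKO livers 1 pericentral gene, Rhbg, and 1 periportal gene, Cyp2f2, were called lower. The part of these shifts in the members' changes was not tested.

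**Figure D5:**
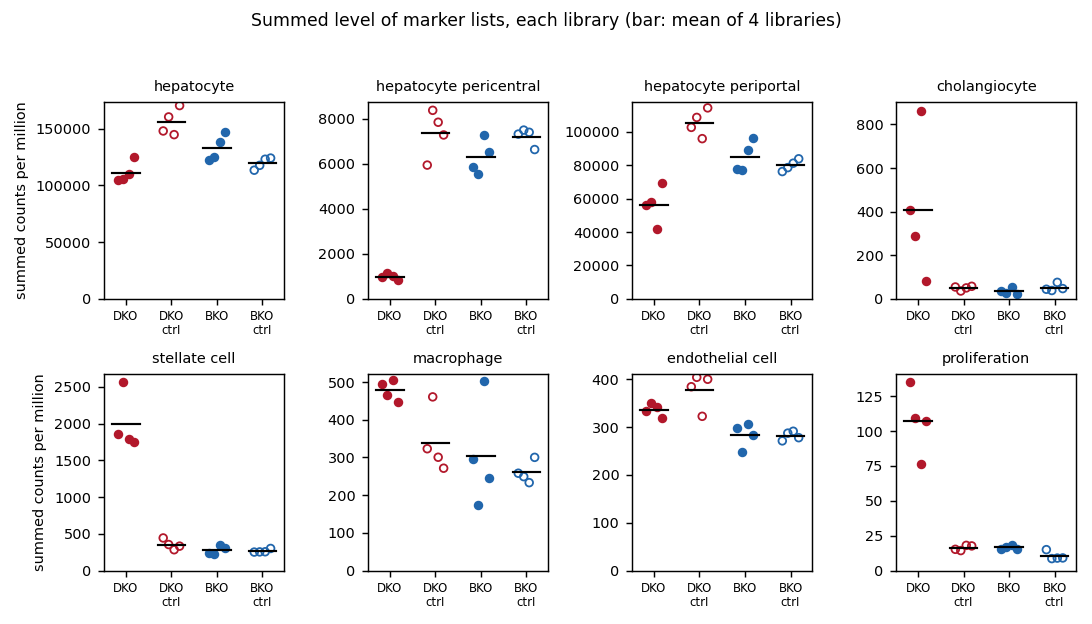
Summed CPM of 8 marker lists in each library of DKO, DKO control, BKO and BKO control livers, one panel per list with its own axis from zero; bars are means of 4 libraries. In DKO livers the stellate cell, cholangiocyte and proliferation sums lie above all DKO controls, and the hepatocyte, pericentral and periportal sums lie below them. Alb is in both the hepatocyte and the periportal list and makes up most of the periportal sum. By its mean, Alb alone fell by no less than the whole hepatocyte sum.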

How the data were processed

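Per the labels' protocols, TRIzol was used to extract total RNA from liver and an Ovation kit (Nugen) to make the libraries. The authors deposited 1 table of whole, unnormalized counts per gene for each experiment. The tools listed are HISAT2 2.1.0 (an aligner), featureCounts 1.6.2 (a read counter) and Trim Galore 0.4.1 (an adapter trimmer), and the builds GRCm38, mm10 and GRCh38, with no role given, per the submitters' processing notes. Strand use, annotation and handling of reads that match several genes: not given in the sources used here. Each table held 24421 rows, of which 24394 had a name found in both and entered the joint fit. The other 27 rows of the BKO experiment carry dates in place of gene names. Columns without a sample numbered 0.

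Tests used edgeR 4.0.16 in R 4.3.3 (robust quasi-likelihood fit, filterByExpr, TMM) within each experiment, and over all 16 libraries for the DKO change minus the BKO change, which absorbs the difference between experiments in the group means. Knockouts of the 2 experiments were not compared directly, since the tables differ in depth. The fits were tested on simulated counts. CPM per kilobase uses the exon length in GENCODE M21 on GRCm38, which held all 42 members. In it 18 overlap another gene, 16 of these on the opposite strand, and 8 share exon bases with one. Near copies were sought as shared 50-base stretches of transcripts. Promoter windows are from RefSeq on GRCm38.p6.

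The 42 members, the 104 other pathway genes and the marker lists were chosen with earlier results of these data known, so no list was tested as a set. Values in every library are given for the urea cycle and, in each other pathway, for up to 3 members called in any fit by the smallest DKO adjusted p, or the 1 with the smallest p where none was called. Of the other pathway genes up to 3 called per list are named by the same order, and the other genes named with a fold change were added to account for a count. Alternatives were other scalings and filters, DESeq2 1.42.0, a 1.2-fold minimum, each library left out, 2 pairs of libraries summed, the range of animal tags as a covariate and 1 joint fit. Only the tags say that libraries are separate animals, so p-values measure the spread between these libraries. The BKO controls F5 and F5-2 had a dispersion of 0.0565, within that of the other control pairs (0.0291 to 0.0589), and were kept as 2 libraries. By their tags both may come from 1 animal, and that group then holds 3 animals. Summed into 1 library they changed no BKO call of a member, and the difference of Tat was lost. In the BKO experiment more genes had exactly 2 counts (562 to 686 per library) than 1 (305 to 465), the reverse of the DKO experiment (564 to 622 and 892 to 1075), so the lowest BKO counts may not be single reads. A few of the other pathway genes are counted but not reported by name here.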

Additional observations from a re-analysis of the deposited data

Results flagged for a closer look

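The change in DKO livers minus the change in BKO livers passed the test of the difference for 18 members (log2 scale, edgeR quasi-likelihood test, adjusted p under 0.05). In the urea cycle and glutamine and proline breakdown it was -0.74 for Otc, -1.06 for Asl, -0.60 for Gls2 and -3.17 for Prodh. In methionine metabolism it was -0.80 for Mat1a, -1.92 for Gnmt and -1.20 for Ahcy. In aromatic and histidine breakdown it was -1.63 for Tat, -1.09 for Hpd, -0.49 for Fah, -1.33 for Tdo2, -1.68 for Haao and -0.96 for Ftcd. For serine and the branched-chain complex it was 0.98 for Sds, -0.95 for Shmt1, -0.45 for Bckdha, -0.56 for Bckdhb and -0.90 for Dbt. Apart from Sds these differences all had the sign of a larger fall in DKO livers. They compare experiments of different depth, each through its own controls.

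A single library stood apart from the other 3 of its group in 10 of 168 member and group pairs, by Dixon's criterion for 4 samples, and chance flags about 1 group in 20. In DKO livers these were Fah at 426 CPM and Kmo at 257 CPM, both in DKO-7137 and both above the rest. In DKO controls it was Sdsl at 10.6 CPM in WT-7139. In BKO livers they were Sardh at 970.4 CPM in F3, Amdhd1 at 110.9 CPM and Bckdha at 113 CPM in F4, and Aass at 386 CPM in F1. In BKO controls they were Gpt at 163 CPM and Cbs at 245 CPM in F7, both below the rest, and Uroc1 at 593 CPM in F5-2. Of these genes Fah and Bckdha were called in DKO livers, and both calls were kept without each library in turn.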

How the results depend on the processing

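No value changed sign in a called result. All 20 members called in DKO livers were kept in the 18 alternatives, except Fah against a 1.2-fold minimum. Members called higher in DKO livers numbered 5 with total counts only, 4 with the tag range as a covariate, 3 in the joint fit and 1 to 3 without single libraries, and other pathway genes called higher 12 and 11 with the first 2 of these. Members called lower there numbered 25 with the tag range, 24 in the joint fit, 23 by DESeq2 and 21 with its size factors, against 19. Over all genes, calls lower in DKO livers fell to 1269 with total counts and 1412 with the 1.2-fold minimum. In BKO livers 2 members were lower by DESeq2 and 1 in the joint fit. There, 1 other pathway gene was lower with DESeq2, its size factors, total counts, no filter or the F5 pair summed (0 to 1 without single libraries), and the 1 higher went to 0 with the 1.2-fold minimum and in the joint fit (0 to 1). BKO calls over all genes were 147 higher and 201 lower by DESeq2, 3 and 20 with the 1.2-fold minimum, 13 and 37 in the joint fit, 4 to 33 and 13 to 73 without single libraries, with 86 lower by total counts. For the difference, 11 members were called in all 25 alternatives, and Tat, Gls2, Bckdha, Fah, Mat1a, Dbt and Bckdhb were lost in at least 1. With total counts it gave 11 members lower and 5 higher, 18 other pathway genes lower, and 744 genes lower and 2627 higher. Members higher numbered 2 by DESeq2 and 1 to 2 without single libraries, and members lower 12 to 19. Total counts moved the median of all genes to 0.20 in DKO livers and 0.27 for the difference. The cause of these shifts was not tested. No knockout shares a replicate tag with a control, so no pairing by tag could be fitted, and the tag range, which the labels do not call a batch, is the nearest block: it kept all 20 DKO calls and added 9. Ass1 was low in every library, also in the deeper BKO experiment, and the cause was not tested. Whole liver limits what a level per cell could show.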
